A study of Mus musculus with 6 samples.

Results

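Levels of 10 genes that report on signalling through the kinase ERK were followed in mouse embryonic stem cells in which the arginine methyltransferase Prmt6 was targeted by RNA interference. The array table lists them as DUSP4, DUSP6, PHLDA1, SPRY2, SPRY4, SPRED1, ETV4, ETV5, EGR1 and FOS, here written in mouse style. They were the feedback inhibitors Dusp4, Dusp6, Phlda1, Spry2, Spry4 and Spred1, the ETS transcription factors Etv4 and Etv5, and the immediate early genes Egr1 and Fos. All probes of the deposited intensity table that carry one of these 10 names were taken, which gave 15 of 46643 probes for 10 of 20497 genes, measured on all 6 arrays. CCE cells, an embryonic stem cell line, were grown without feeder cells in serum and leukemia inhibitory factor (LIF). They were transfected with a pSuper.puro plasmid that makes a hairpin RNA (shRNA) and then kept in 1.5 µg/ml puromycin for 4 days from 18 h after transfection. The 3 groups were GFP shRNA, which served as the control, Prmt6 shRNA1 and Prmt6 shRNA2, with 2 arrays each. Each knockdown was therefore a transient one in a selected population, and all groups shared the transfection and the selection. Whether the replicates came from separate cultures is not stated, so the p-values measure only the spread between these samples, which may be technical.

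In the ERK pathway a growth factor receptor activates Ras, which activates the kinases Raf, MEK and ERK in turn. Active ERK induces immediate early genes within minutes, and with them inhibitors that act back on the pathway, such as the dual-specificity phosphatases (DUSP) that remove phosphate from MAP kinases and the Sprouty and Spred proteins that act upstream at the level of Ras and Raf. In mouse embryonic stem cells autocrine Fgf4 drives ERK, and this signal is known for preparing the cells to leave the naive pluripotent state, which LIF helps to maintain.

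Precision here is set by how few arrays there were. Between 12.4% and 23.4% of the probes were detected on an array, that is, had a detection p under 0.01, with the most on Prmt6 shRNA1 replicate 2 and on GFP shRNA replicate 1. The probe IDs fell into 2 number series. On Prmt6 shRNA2 replicate 2 the second series was dim, with 935 probes detected against 1302 to 2836 on the other arrays. Its replicates correlated with r = 0.971 across the kept first-series probes and 0.714 across the kept second-series probes. Prmt6 itself, read from a second-series probe, was detected on both GFP shRNA arrays, 1 Prmt6 shRNA1 array and no Prmt6 shRNA2 array. Its normalized log2 level was 8.26 ± 0.15 in the control, 6.81 ± 0.64 under Prmt6 shRNA1 and 6.03 ± 0.69 under Prmt6 shRNA2 (SD, n = 2 each), and the difference averaged over both hairpins did not pass the limma test (adjusted p = 0.082). The Prmt6 shRNA2 mean includes 5.54 on the dim array. A dimmer second-series Prmt6 probe differed by -1.69 with Prmt6 shRNA2, against -2.23 here. On average it differed by -1.48 and did not pass (limma adjusted p = 0.105 over all kept probes). The first-series Prmt6 probe was detected on no array. Of 9 embryonic stem cell markers on the array, 7 were detected on every array, Pou5f1, Sox2, Nanog, Zfp42, Klf4, Esrrb and Utf1. All 7 were lower than with GFP shRNA in the average comparison, at -0.90 to -0.36 log2 units, and none passed the limma test. All but Nanog were lower on every Prmt6 shRNA array than on both GFP shRNA arrays, as were 8.79% of all genes. Tdgf1 and Fgf4 were not detected on any array.

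The 10 genes did not move as a block. Phlda1 and Dusp4 rose, Egr1 was lower on every Prmt6 shRNA array without passing the test, and the differences of Dusp6, Spry4, Etv4 and Etv5, none of which passed, were within 0.27 log2 units of GFP shRNA in the average comparison. Levels here are normalized log2 intensities from 1 probe per gene, the brightest that was detected on at least 2 arrays, and differences are in log2 units with limma standard errors. A gene passed when its limma p, adjusted over the 6539 genes tested, was below 0.05. By that rule 9 of the 10 genes were measured. The 10 genes were chosen with earlier results of these data known, so the counts of them that passed are a description. Averaged over both hairpins, 2 of the 9 passed, both higher, against 1.67% of all genes (1.5% higher and 0.168% lower), and the median difference of the 9 was -0.21 against 0.02 over all genes. With Prmt6 shRNA1 alone 1 of the 9 passed, again higher, where 1.32% of all genes did (1.27% higher and 0.0459% lower), and with Prmt6 shRNA2 alone 1 of the 9, where 1.04% did (0.933% higher and 0.107% lower). Unadjusted p-values below 0.05 were reached by 3 of the 9 in the average comparison, against 14.6% of all genes. The gene that passed was Phlda1 in each case. Between the hairpins 0 of the 9 passed by limma, against 0.398% of all genes, and 1, Egr1, had an unadjusted p below 0.05, against 11.9%. The comparisons with GFP shRNA share the same 2 control arrays.

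**Figure D1:**
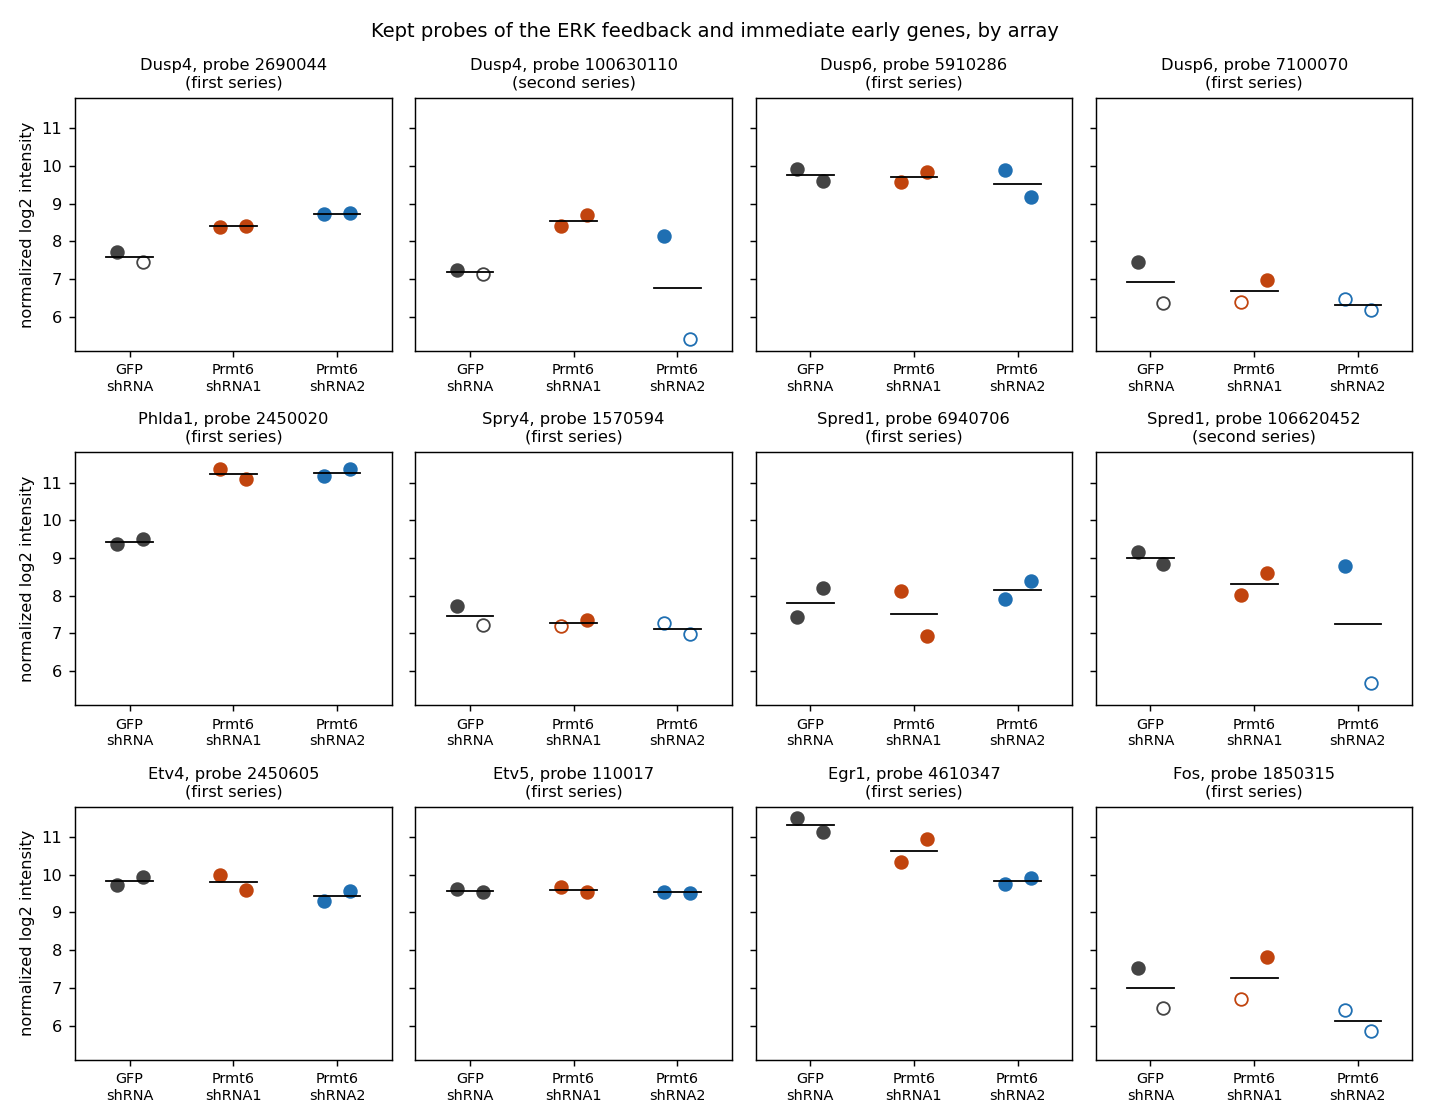
Normalized log2 intensity (y axis) of the 12 kept probes on each array (points, replicate 1 left of replicate 2) in the 3 hairpin groups (x axis). Filled points are detected, open points are not, and the bar is the group mean; heights are not comparable between probes. Phlda1 and first-series Dusp4 lie higher on all 4 Prmt6 shRNA arrays, Egr1 lies lower on all 4, and the second-series probes of Dusp4 and Spred1 drop on Prmt6 shRNA2 replicate 2.

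Among the feedback inhibitors, Phlda1, a pleckstrin-homology protein first known as a T-cell death-associated gene and induced by ERK in many cells, changed most evenly. Its deposited intensities were 786.2 and 655.2 on the GFP shRNA arrays, 1738.6 and 2711.1 on the Prmt6 shRNA1 arrays and 2719.7 and 2089 on the Prmt6 shRNA2 arrays. After normalization the values were 9.36 and 9.51, 11.35 and 11.10, and 11.18 and 11.35 in the same order. All 4 Prmt6 shRNA arrays lay above both GFP shRNA arrays, with a gap between the groups wider than the spread within any of them. The rise was 3.51-fold averaged over both hairpins (log2 1.81 ± 0.16, limma adjusted p = 0.0118). It was 3.46-fold with Prmt6 shRNA1 (1.79 ± 0.19, limma adjusted p = 0.016) and 3.55-fold with Prmt6 shRNA2 (1.83 ± 0.19, limma adjusted p = 0.0419). The hairpins differed by 0.04 log2 units, with a 95% interval from -0.43 to 0.50. Without GFP shRNA replicate 1 or 2 the average rise was 1.74 or 1.89 and did not pass (adjusted p = 0.13 and 0.17), and in those fits 0 of all 6539 genes passed; leaving out any other array kept the call.

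Dusp4, a nuclear phosphatase of ERK and other MAP kinases, rose less and passed narrowly. The intensities of its brightest probe (ID 2690044) were 228.3 and 175.2 on the GFP shRNA arrays, 224.5 and 406.6 on the Prmt6 shRNA1 arrays and 495.1 and 309.9 on the Prmt6 shRNA2 arrays. Normalized, these were 7.70 and 7.44, 8.38 and 8.41, and 8.71 and 8.75. Every Prmt6 shRNA array lay above both GFP shRNA arrays after normalization, whereas as deposited Prmt6 shRNA1 replicate 1 lay just below GFP shRNA replicate 1. The rise was 1.99-fold averaged over both hairpins (log2 0.99 ± 0.15, limma adjusted p = 0.0485). It was 0.82 ± 0.18 with Prmt6 shRNA1 (limma adjusted p = 0.13) and 1.16 ± 0.18 with Prmt6 shRNA2 (limma adjusted p = 0.0546), neither of which passed alone. The probe was detected on 1 of the 2 GFP shRNA arrays and on all 4 Prmt6 shRNA arrays. It met the rule of detection on at least 2 arrays only through the Prmt6 shRNA groups, which its p-values do not take into account. Without a filter on dim probes the average rise did not pass (limma adjusted p = 0.0746). Of the 6 fits that left out an array, the average rise passed in the fit without Prmt6 shRNA2 replicate 1 and in no other, with values from 0.86 to 1.13 log2 units, and with the authors' processed values it was 0.63 (adjusted p = 0.0566).

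Another Dusp4 probe, from the second series (ID 100630110), was lower on the dim array than on any other. It read 7.22 and 7.14 on the GFP shRNA arrays, 8.39 and 8.69 on the Prmt6 shRNA1 arrays and 8.14 and 5.40 on the Prmt6 shRNA2 arrays. Both Prmt6 shRNA1 arrays and Prmt6 shRNA2 replicate 1 lay above both GFP shRNA arrays, and Prmt6 shRNA2 replicate 1 lay below both Prmt6 shRNA1 arrays, unlike for the brightest probe. Its differences were 1.36 ± 0.85 under Prmt6 shRNA1 and -0.41 ± 0.85 under Prmt6 shRNA2, and neither passed over all kept probes (limma adjusted p = 0.732 and 0.822). The remaining Dusp4 probe was detected on no array.

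Dusp6, a cytoplasmic phosphatase specific for ERK and a common readout of its activity, did not follow Dusp4. Its brightest probe read 9.91 and 9.61 on the GFP shRNA arrays, 9.57 and 9.84 on the Prmt6 shRNA1 arrays and 9.88 and 9.18 on the Prmt6 shRNA2 arrays. The groups overlapped, and replicates of Prmt6 shRNA2 lay further apart than any group means. The average difference was -0.15 ± 0.25, with a 95% interval from -0.75 to 0.46 (limma adjusted p = 0.835). A dimmer Dusp6 probe, detected on 1 GFP shRNA and 1 Prmt6 shRNA1 array, gave -0.41 ± 0.36 and did not pass (limma adjusted p = 0.677 over all kept probes).

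Of the Sprouty and Spred genes, which encode membrane-associated inhibitors of the Ras to Raf step, none passed. Spry4 was near background, detected on GFP shRNA replicate 1 and Prmt6 shRNA1 replicate 2 alone. It read 7.72 and 7.23 on the GFP shRNA arrays, 7.21 and 7.35 on the Prmt6 shRNA1 arrays and 7.27 and 6.98 on the Prmt6 shRNA2 arrays, where it was not well above background. The groups overlapped, and the average difference was -0.27 ± 0.20 (limma adjusted p = 0.612). The single Spry2 probe was detected on no array and entered no test.

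Spred1 was read by a probe of each series, and the readings disagreed. The second-series probe (ID 106620452), the brighter of the pair, read 9.16 and 8.83 on the GFP shRNA arrays, 8.01 and 8.61 on the Prmt6 shRNA1 arrays and 8.79 and 5.68 on the Prmt6 shRNA2 arrays. All 4 Prmt6 shRNA arrays lay below both GFP shRNA arrays, but Prmt6 shRNA2 replicate 1 missed GFP shRNA replicate 2 by little, and Prmt6 shRNA2 replicate 2 was far below all others. The average difference was -1.22 ± 0.82 (limma adjusted p = 0.568). It was -0.44 (adjusted p = 0.594) without Prmt6 shRNA2 replicate 2, and -2.00 (adjusted p = 0.0167) without Prmt6 shRNA2 replicate 1, which leaves the dim array alone in its group. The first-series probe (ID 6940706) was detected on all 6 arrays and read 7.43 and 8.20, 8.12 and 6.92, and 7.92 and 8.38. Here the groups overlapped and the average difference was 0.02 ± 0.42 (limma adjusted p = 0.991 over all kept probes).

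The ETS factors Etv4 and Etv5, transcription factors induced downstream of FGF receptors, were detected on every array. Etv5 was the steadiest gene of the set, at 9.62 and 9.53 on the GFP shRNA arrays, 9.66 and 9.54 on the Prmt6 shRNA1 arrays and 9.55 and 9.52 on the Prmt6 shRNA2 arrays. The groups overlapped and the average difference was -0.01 ± 0.14, with a 95% interval from -0.36 to 0.35. The Etv4 intensities were 1022.6 and 884.6, 670 and 969.1, and 750.8 and 569.7 in the same order, and the normalized means were 9.83 ± 0.13, 9.80 ± 0.29 and 9.44 ± 0.19 (SD, n = 2 each). After normalization both Prmt6 shRNA2 arrays lay below both GFP shRNA arrays, as was the case for 20.2% of all genes, while Prmt6 shRNA1 overlapped with the control. The Etv4 difference was -0.21 ± 0.19 on average (95% interval -0.68 to 0.26) and -0.39 ± 0.22 with Prmt6 shRNA2 (limma adjusted p = 0.664 and 0.401). The other Etv5 probe, of the second series, was detected on no array.

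**Figure D2:**
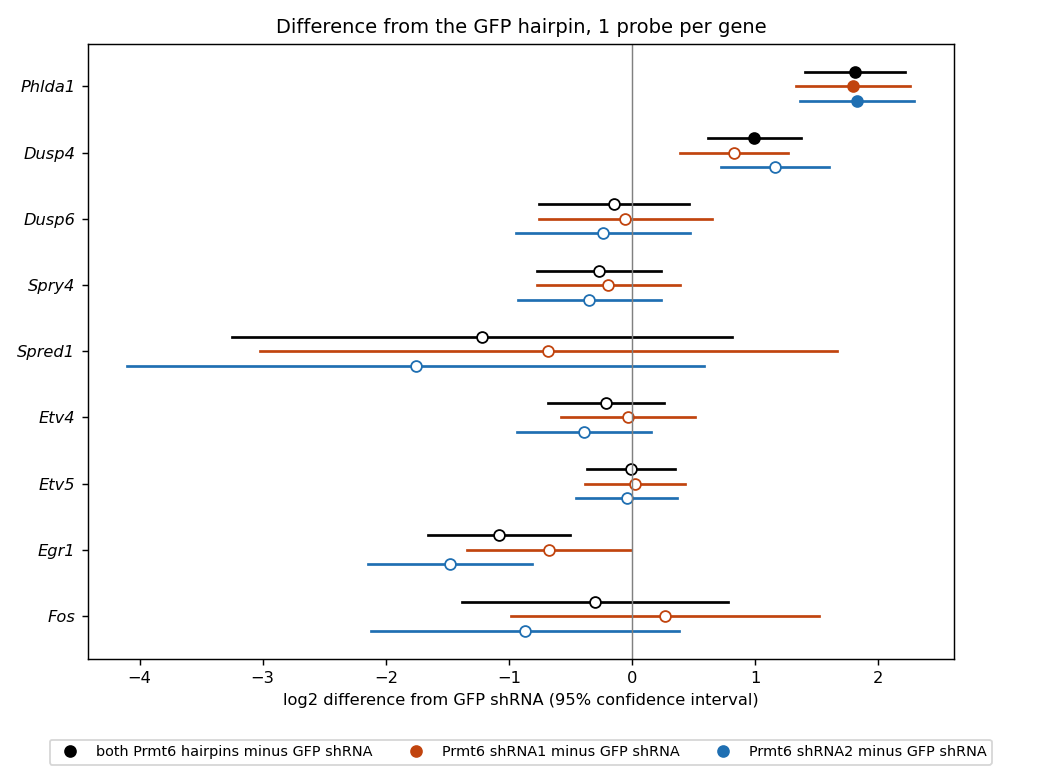
Log2 difference from GFP shRNA (x axis) for the 9 measured genes (y axis), for the average of both Prmt6 hairpins and for each hairpin. Points are limma estimates, bars are 95% confidence intervals, and filled points passed the test over all genes. Phlda1 is filled in all 3 comparisons, Dusp4 in the average alone, and the Egr1 intervals lie below 0 without passing.

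Egr1, a zinc-finger transcription factor induced through serum response factor and ETS partners, was lower on the Prmt6 shRNA arrays but did not pass. Its intensities were 3418 and 2096 on the GFP shRNA arrays, 841 and 2461.4 on the Prmt6 shRNA1 arrays and 1012.3 and 738.7 on the Prmt6 shRNA2 arrays. Normalized, they were 11.50 and 11.14, 10.33 and 10.95, and 9.75 and 9.92. All 4 Prmt6 shRNA arrays lay below both GFP shRNA arrays after normalization, as was the case for 8.79% of all genes, and Prmt6 shRNA2 lay below Prmt6 shRNA1. As deposited, Prmt6 shRNA1 replicate 2, the array with the most probes detected, exceeded GFP shRNA replicate 2. The average difference was -1.08 ± 0.23, a 2.11-fold lower level (limma adjusted p = 0.0996). It was -0.68 ± 0.27 with Prmt6 shRNA1 (limma adjusted p = 0.419) and -1.48 ± 0.27 with Prmt6 shRNA2 (limma adjusted p = 0.0811). Prmt6 shRNA2 minus Prmt6 shRNA1 was -0.80 ± 0.27 (limma adjusted p = 0.367). The average difference passed in 4 of 17 alternatives, in each of which more of all genes passed than as reported. These were the authors' processed values (-1.02, limma adjusted p = 0.0356) and the first probe series alone (-1.14, limma adjusted p = 0.043). The others were detection required on all 6 arrays (limma adjusted p = 0.0033) and a robust variance prior with an intensity trend (limma adjusted p = 0.0035).

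Fos, the partner of Jun in the AP-1 transcription factor, was near background. Its promoter is shown because it is a textbook example of a promoter that holds a cAMP response element, beside that of Dusp6, which did not pass either. Each line gives the 250 bases before the transcription start from RefSeq (GRCm38.p6), 5′ to 3′, at chr12:85473640-85473889 on the plus strand for Fos and chr10:99262981-99263230 on the plus strand for Dusp6. Capitals mark matches to TGACG, the core of a cAMP response element, and to TATAAA.
Fos promoter: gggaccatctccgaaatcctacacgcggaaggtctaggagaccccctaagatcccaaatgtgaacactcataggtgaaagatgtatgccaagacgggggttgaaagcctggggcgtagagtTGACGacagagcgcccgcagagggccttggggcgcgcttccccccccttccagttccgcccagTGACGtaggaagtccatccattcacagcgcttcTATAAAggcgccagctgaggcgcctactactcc
Dusp6 promoter: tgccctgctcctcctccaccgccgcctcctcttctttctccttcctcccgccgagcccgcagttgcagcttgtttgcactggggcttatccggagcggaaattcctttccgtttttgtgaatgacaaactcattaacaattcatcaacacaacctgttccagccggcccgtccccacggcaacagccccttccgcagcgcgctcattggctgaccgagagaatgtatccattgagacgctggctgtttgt
The motifs searched on both strands were TGACG, the TATA box TATAAA, the AP-1 site TGANTCA and the CArG box of serum response factor. Also searched was CCGGAA, which is stricter than the ETS core GGAA that both windows shown hold. Bases further upstream were not searched, and the matches found do not overlap. Fos held TGACG at 129 to 125 and at 66 to 62 bases before the start, and TATAAA at 33 to 28. Of 32851 RefSeq promoters of that length, 17.8% held the cAMP response core and 12.4% the TATA box. CCGGAA was held by 12%, the AP-1 site by 6.75% and a CArG box by 1.47%. The Dusp6 window held none of the 5 motifs, nor did those of Spry2, Spred1 and Etv5, the other 3 of the 5 genes searched. Dusp4, Phlda1 and Etv4 had no promoter in the source used. The promoters of Egr1 and Spry4 were left out of the search, so nothing is said of them. A match is a description of the letters and not a measured site.

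The Fos probe read 7.53 and 6.46 on the GFP shRNA arrays, 6.71 and 7.81 on the Prmt6 shRNA1 arrays and 6.41 and 5.85 on the Prmt6 shRNA2 arrays. It was detected on GFP shRNA replicate 1 and Prmt6 shRNA1 replicate 2, the arrays with the most probes detected, and on no other, so it was not well above background with Prmt6 shRNA2. Both Prmt6 shRNA2 arrays lay below all others, and Prmt6 shRNA1 overlapped with GFP shRNA. The differences were 0.27 ± 0.51 under Prmt6 shRNA1 and -0.87 ± 0.51 under Prmt6 shRNA2, and neither passed (limma adjusted p = 0.952 and 0.412).

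Counting arrays rather than tests, 2 of the 9 measured genes had all 4 Prmt6 shRNA arrays above both GFP shRNA arrays, Phlda1 and Dusp4, and 2 had all 4 below, Egr1 and Spred1. These counts use the brightest probe. The first-series Spred1 probe and the second-series Dusp4 probe overlapped between the groups. Over all genes 15.8% lay wholly above and 8.79% wholly below. With Prmt6 shRNA1 alone the same split was 2 and 2, against 23% and 19.4% of all genes. With Prmt6 shRNA2 alone it was 2 and 4, against 32.2% and 20.2%, the further genes below being Etv4 and Fos.

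Among the 9 genes, replicates of GFP shRNA and of Prmt6 shRNA1 lay furthest apart for Fos. Replicate 1 minus replicate 2 was 1.07 with GFP shRNA and -1.10 with Prmt6 shRNA1, beside an SD of this difference over all genes of 0.39 and 0.48. Egr1 differed in the same directions, by 0.36 and -0.63, as did Dusp6, by 0.30 and -0.27, Spry4, by 0.49 and -0.15, Spred1, by 0.33 and -0.60, and Dusp4, by 0.27 and -0.02. For these 6 of the 9 genes the higher replicate was the array with more probes detected, 9034 against 6444 with GFP shRNA and 10928 against 6369 with Prmt6 shRNA1. The part of that difference in the results was not tested. Phlda1 and Etv4 ran the other way in both groups, and Etv5 was slightly higher on replicate 1 in both. The median difference of the 9 genes was 0.30 with GFP shRNA, -0.15 under Prmt6 shRNA1 and 0.04 under Prmt6 shRNA2, against 0.05, -0.05 and -0.16 over all genes.

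**Figure D3:**
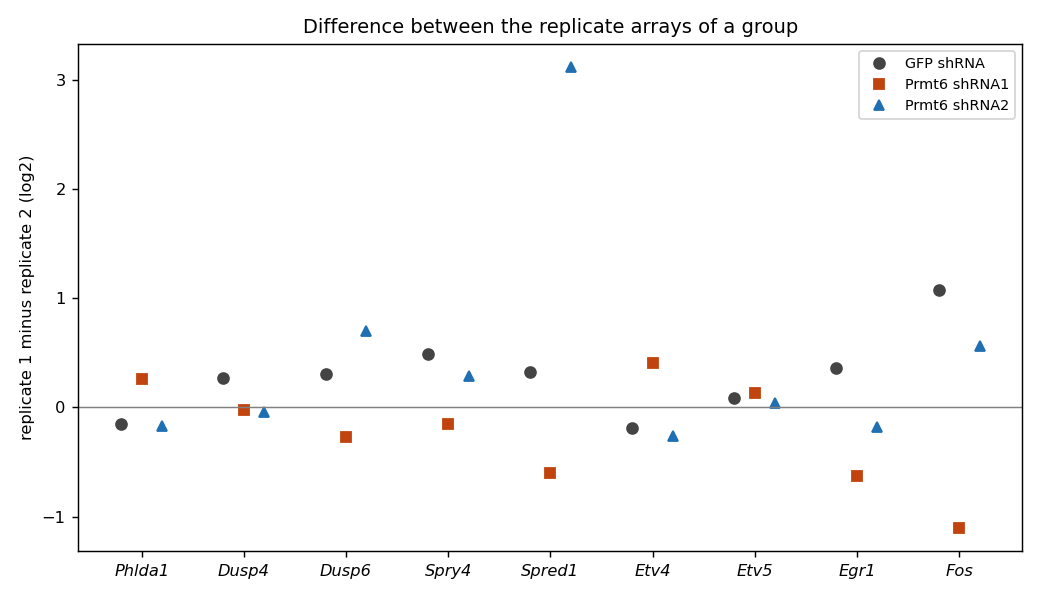
Replicate 1 minus replicate 2 in normalized log2 units (y axis) for the 9 measured genes (x axis), by group. Fos spans the range from 1.07 with GFP shRNA to -1.10 with Prmt6 shRNA1, and Spred1 with Prmt6 shRNA2 stands at 3.12, where its second-series probe was dim on replicate 2.

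Around these genes, the list of other pathway genes held 104 names, of which 103 were on the array and 46 were measured. Averaged over both hairpins, 4 of the 46 rose and 1 fell, where 1.5% of all genes rose and 0.168% fell, with a median difference of 0.18 against 0.02 over all genes. The 4 include Egfr and Plaur, which had to be detected with a Prmt6 hairpin to be measured at all. The lists were also chosen with earlier results of these data known, so the count is a description. Of 4 measured genes of the list of FGF ligands and receptors, which also holds receptors of other growth factors, 1 rose, the epidermal growth factor receptor Egfr. It was not well above background on either GFP shRNA array, detected on both Prmt6 shRNA1 arrays and on 1 Prmt6 shRNA2 array, and so entered the test through the groups where it was high, which its p-values do not take into account. Egfr read 6.32 and 5.96 on the GFP shRNA arrays, 8.11 and 8.49 on the Prmt6 shRNA1 arrays and 7.78 and 7.92 on the Prmt6 shRNA2 arrays. All 4 Prmt6 shRNA arrays lay above both control arrays. The rise was at least 1.55-fold on average (limma adjusted p = 0.0186), at least 1.81-fold with Prmt6 shRNA1 (limma adjusted p = 0.0158) and at least 1.33-fold with Prmt6 shRNA2 (limma adjusted p = 0.0438).

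Of 9 other feedback inhibitors measured 2 rose on average, where 1.5% of all genes did. With Prmt6 shRNA2 alone none passed. On average 8 lay above 0, with Prmt6 shRNA1 9 and with Prmt6 shRNA2 6. The medians were 0.40, 0.49 and 0.31 in that order, against 0.02, -0.02 and 0.08 over all genes. Dusp1, an immediate early phosphatase of the stress-activated MAP kinases and ERK, read 10.30 and 10.14 on the GFP shRNA arrays, 11.60 and 11.85 on the Prmt6 shRNA1 arrays and 10.89 and 11.28 on the Prmt6 shRNA2 arrays. The Prmt6 shRNA arrays all lay above the control arrays, and Prmt6 shRNA1 above Prmt6 shRNA2. Dusp1 was higher by 1.19 ± 0.19 on average and by 1.51 ± 0.21 with Prmt6 shRNA1 (limma adjusted p = 0.049 and 0.0411). Errfi1, an inhibitor of the Egfr kinase, was higher by 0.99 ± 0.16 on average and by 1.39 ± 0.18 with Prmt6 shRNA1 (limma adjusted p = 0.049 and 0.0335). With Prmt6 shRNA2 neither passed, at 0.87 and 0.59 (limma adjusted p = 0.142 and 0.203), and the difference between the hairpins did not pass for either (limma adjusted p = 0.367 and 0.211).

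Of 11 other immediate early genes measured 1 rose, Plaur, the urokinase receptor, a known target of AP-1. Plaur read 7.78 and 7.26 on the GFP shRNA arrays, 10.58 and 10.70 on the Prmt6 shRNA1 arrays and 9.37 and 9.63 on the Prmt6 shRNA2 arrays. The 3 groups did not overlap, and the probe was detected on 1 GFP shRNA array and on every Prmt6 shRNA array. Like Dusp4, Plaur was kept only through the Prmt6 shRNA groups, which its p-values do not take into account. The rise was 8.69-fold with Prmt6 shRNA1 (limma adjusted p = 0.0068) and 3.94-fold with Prmt6 shRNA2 (limma adjusted p = 0.0438). The median of the 11 genes was 0.13 in the average comparison.

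Of 15 genes of the Ras to ERK cascade 1 fell, Eras, a constitutively active Ras of embryonic stem cells, at -1.58 ± 0.22 with Prmt6 shRNA2 and -1.29 ± 0.19 on average (limma adjusted p = 0.0446 and 0.0444). With Prmt6 shRNA1 Eras was at -0.99 ± 0.22 and did not pass (limma adjusted p = 0.138). The other 14 did not pass on average, and the median of the 15 was 0.09. Of 7 ETS and SRF factors none passed on average. With Prmt6 shRNA1 alone 5 of the 46 pathway genes, Egfr and Plaur included, rose and 0 fell by limma, against 1.27% and 0.0459% of all genes. With Prmt6 shRNA2 alone 2 rose, Egfr and Plaur, and 1 fell, against 0.933% and 0.107%. The fifth riser with Prmt6 shRNA1, named after its values were seen, was Elk3, an ETS factor of the ternary complex that binds with serum response factor, at 1.35 ± 0.20 (limma adjusted p = 0.0454). Elk3 did not pass with Prmt6 shRNA2, at 0.32 ± 0.20, or on average, at 0.83 ± 0.17 (limma adjusted p = 0.439 and 0.0879).

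Some markers of other cell types moved in the same comparison. Of 6 measured trophectoderm markers 4 rose, the keratins Krt7, Krt8 and Krt18, and Gata3, where 1.5% of all genes rose. Gata3 went undetected in the control and entered the test through the groups where it was high. Krt7 and Krt18, each detected on 1 GFP shRNA array, were also kept only through the Prmt6 shRNA groups. Cdx2 and Tfap2c did not pass (0.47 and 0.21, limma adjusted p = 0.549 and 0.657). Of the rest of that list, Eomes, Elf5 and Hand1 were detected on no array and Tead4 on 1. The mean level of the 6 measured markers ran from 7.68 to 7.92 on the GFP shRNA arrays. It ran from 10.43 to 10.50 on the Prmt6 shRNA1 arrays and 8.95 to 9.07 on the Prmt6 shRNA2 arrays. Of 5 measured endoderm markers 2 rose, Gata4 and Col4a1, against the same 1.5% of all genes. Gata4 was detected on 1 GFP shRNA array and kept only through the Prmt6 shRNA groups. Gata6, Sox17 and Dab2 did not pass, and Sox7, Foxa2, Lama1 and Afp were detected on no array. The mean levels of the 5 ran from 8.87 to 8.92, 9.61 to 9.75 and 10.19 to 10.33 in the same order of groups. Of 11 fibroblast and feeder markers, 9 were detected on no array, Col1a1, Col1a2 and Thy1 among them, and Fbn1 on 1. The remaining one, Acta2, a smooth muscle actin, was detected on all 6 arrays and rose 5.89-fold on average (log2 2.56 ± 0.31, limma adjusted p = 0.0291) and 9.80-fold with Prmt6 shRNA1 (3.29 ± 0.36, limma adjusted p = 0.0185). With Prmt6 shRNA2 its difference was 1.83 ± 0.36 and did not pass (limma adjusted p = 0.0938). The part of such markers in the changes of Phlda1, Dusp4 and the pathway genes was not tested, and in these bulk samples more cells of a type and more RNA per cell cannot be told apart.

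**Figure D4:**
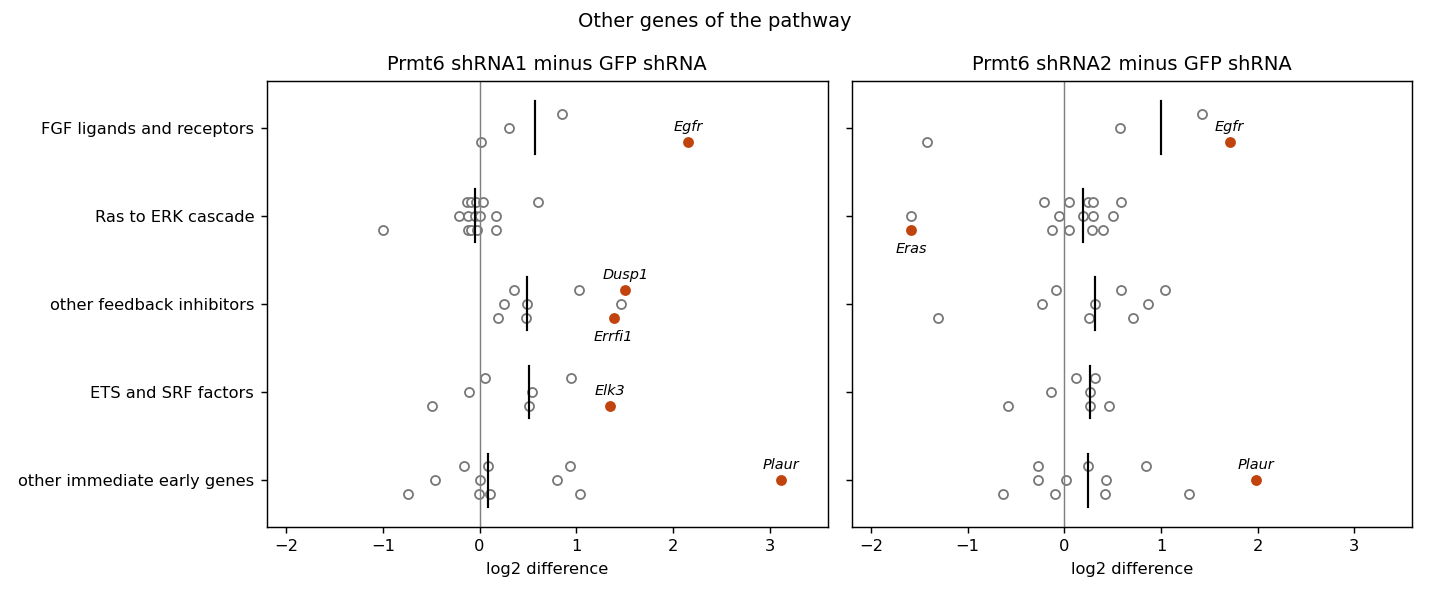
Log2 difference from GFP shRNA (x axis) of the 46 measured pathway genes (points), by list (y axis), with Prmt6 shRNA1 on the left and Prmt6 shRNA2 on the right. Filled points passed the test over all genes and are named, open points did not, and the vertical line in each row is the list's median.

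The genes whose levels followed the risers most closely over the 6 arrays are given as a description, without a test. For Phlda1 they were Calu (Pearson r = 0.995), Creb3 (0.993) and Cd63 (0.993), and 106 genes exceeded 0.95. For Dusp4 they were Rabgef1 (0.996), Ammecr1l (0.995) and Mpp1 (0.995), and 95 genes exceeded 0.95. Of these 6 genes Creb3, a membrane-bound transcription factor, passed in the average comparison, at 1.32 log2 units (limma adjusted p = 0.0288). The 6 arrays share hairpin groups and normalization, and so many genes reach a high r.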

How the data were processed

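Per the file headers, the authors deposited a mean bead intensity for each probe and array on a linear scale, with background already subtracted since values below 0 occur, and beside it a detection score, a fraction from 0 to 1 that grows with the signal and was therefore taken as 1 minus a detection p. The authors also deposited processed log2 values, for which the submitters' processing notes name lumi; version, transformation and normalization are not given in the sources used here.

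Intensities were corrected and quantile-normalized with neqc (offset 16) in limma 3.58.1 under R 4.3.3. Probes with a detection p under 0.01 on at least 2 of the 6 arrays were kept (9138). Names were matched to RefSeq symbols and synonyms (GRCm38.p6, used for names and promoters), for 34387 of 46643 probes, and the brightest kept probe stood for each of 6539 genes. A limma model (lmFit, eBayes) of group means used all 6 arrays. P-values are two-sided and adjusted by Benjamini and Hochberg over all genes, or over all kept probes where so stated. Where a group did not detect a gene, "at least" folds compare the other group with, per array, the larger of the measured value and the dimmest detected probe. The smallest p of an exact permutation test of 4 arrays and 2 is 0.133. In simulated data the noise was independent between arrays, at each gene's fitted spread. Changes there were the same under both hairpins and no array was dim, so the shares need not hold for the real arrays. On these simulated data the average comparison recovered 43% of changes of 1 log2 unit and 95% of changes of 2 log2 units. Of the calls made there, 4.83% were false.

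The 10 genes and the pathway lists were chosen with earlier results of these data known. The text names all 10 genes with every kept probe, Prmt6, each pathway gene called on average, up to 4 called per direction with each hairpin, and the 3 genes most correlated with each called member.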

Additional observations from a re-analysis of the deposited data

How the results depend on the processing

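There were 17 alternatives, 2 of them chosen after seeing the data (each probe series normalized on its own, and the first probe series alone with Prmt6 shRNA2 replicate 2 left out). The robust variance prior was fitted together with an intensity trend. Of the 9 genes, 2 passed on average, 1 with Prmt6 shRNA1, 1 with Prmt6 shRNA2 and 0 between hairpins by limma as reported. On average 1 passed without further background correction, without a filter, with every kept probe tested, with the mean of a gene's probes, and in the first series with Prmt6 shRNA2 replicate 2 left out. On average 3 passed (2 higher and 1 lower) in the first series alone and with the robust prior, and with the authors' values and with detection on all 6 arrays the 2 were Phlda1, higher, and Egr1, lower. With Prmt6 shRNA1, 0 passed without a filter and 2 in the first series alone. With Prmt6 shRNA2, 2 passed with the authors' values and with detection on all 6 arrays, 3 in the first series alone and with a robust variance prior, and 0 without background correction, without a filter, with every kept probe tested, and in the first series with replicate 2 left out. Leaving out 1 array gave 0 to 3 on average, 0 to 1 with Prmt6 shRNA1, 0 to 3 with Prmt6 shRNA2 and 0 to 1 between hairpins. Without either GFP shRNA array all 4 counts were 0, and without Prmt6 shRNA2 replicate 1 they were 3, 1, 3 and 1. The causes were not tested.

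Over all genes 109 passed on average as reported, 195 with the authors' values, 52 without background correction, 26 without a filter, 302 with detection on all 6 arrays, 29 with every kept probe, 273 in the first series alone, 400 with the robust prior, 37 in the first series with Prmt6 shRNA2 replicate 2 left out, and 0 to 464 with an array left out. The Dusp4 rise passed in 4 of 16 alternatives and the Phlda1 rise in 14 of 17 on average, 11 of 17 with Prmt6 shRNA1 and 7 of 17 with Prmt6 shRNA2. Of the pathway genes, Dusp1, Errfi1 and Eras passed on average in 7 of 17 each, Egfr in 9 of 16, Plaur in 12 of 16, and Elk3 with Prmt6 shRNA1 in 6 of 17.

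With the replicate number as a replicate block, 0 of the 9 genes passed in any comparison by limma, and 0 of all genes on average. The replicate differences of the groups correlated with r = -0.648 between GFP shRNA and Prmt6 shRNA1 and 0.124 between GFP shRNA and Prmt6 shRNA2. Between the Prmt6 hairpins r was -0.359. Whether the shared numbers pair the samples is not stated, and these correlations cannot decide it.

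Changes of sign concerned values that did not pass, and the hairpin difference of called genes. Etv5 was 0.0051 on average with the authors' values, and with Prmt6 shRNA1 -0.0074 in the first series alone and with each series on its own, and -0.0073 in the first series with Prmt6 shRNA2 replicate 2 left out. Spred1 was 0.0186 on average and 0.33 with Prmt6 shRNA2 when detection was required on all 6 arrays, 0.21 with Prmt6 shRNA2 in the first series, and 0.0651 there with replicate 2 left out, where Dusp6 was 0.0833. The difference between hairpins was -0.72 for Dusp4 with the mean of its probes. For Phlda1 it was -0.0197 in the first series and with each series on its own, and -0.0509 in the first series with Prmt6 shRNA2 replicate 2 left out. With an array left out, Etv5 ran from -0.054 to 0.0354 on average, -0.0413 to 0.0882 with Prmt6 shRNA1 and -0.0868 to 0.0027 with Prmt6 shRNA2. Dusp6 ran from -0.32 to 0.0294, -0.21 to 0.0973 and -0.58 to 0.11 in that order. Fos ran from -0.84 to 0.24 on average and -0.28 to 0.82 with Prmt6 shRNA1, where Spry4 ran from -0.44 to 0.0548 and Etv4 from -0.24 to 0.17. The hairpin difference of Phlda1 ran from -0.0916 to 0.16.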
